A study of Mus musculus with 12 samples.

Results

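The mouse Hippo-YAP genes described here are 9 regulators and targets of the pathway, Amot, Amotl1, Amotl2, Cyr61, Ctgf, Yap1, Wwtr1, Lats2 and Tead1, taken by symbol as 9 of the 25897 rows of a table of read counts. RNA was measured in E14tg2a cells, a 129SV mouse embryonic stem cell line, that carry cRAF-ERT2, a RAF kinase fused to a hormone-binding domain that 4-hydroxytamoxifen (4OHT) switches on, so that the drug activates ERK. There were 12 libraries, 1 from each of 3 clones (a, b and c) in each of 4 groups, which were left untreated or kept in 250 nM 4OHT for 1, 2 or 4 h. Libraries of all 4 groups came from cells with the same construct, kept in serum and LIF with 2 µM Chir99021, an inhibitor of GSK3, and then for the last 24 h before treatment in serum and LIF with 250 nM PD173074, an inhibitor of FGF receptors. All 4 groups also received 5 mM ethynyl uridine for the final 15 min, and the total RNA sequenced had its ribosomal RNA removed. The titles and the design give the times 1, 2 and 4 h, but the samples' treatment protocol speaks of 0 and 2 h alone. No group received a vehicle and no group lacked the construct, so the drug and the activated kinase cannot be told apart, and each clone is a single line.

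In the Hippo pathway a kinase cascade ending in LATS1 and LATS2 phosphorylates the coactivators YAP (Yap1) and TAZ (Wwtr1) and keeps them out of the nucleus. Free of that mark, the coactivators bind the TEAD transcription factors and switch on targets such as Cyr61 and Ctgf. Angiomotins (Amot, Amotl1 and Amotl2) bind YAP and TAZ and hold them at junctions and in the cytoplasm, and Amotl2 is itself a known YAP target. In the early mouse embryo the pathway separates trophectoderm from the inner cell mass, the source of embryonic stem cells.

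Libraries held 24213641 to 31435301 counts, and 8 of the 9 members passed the filter on low counts, Lats2 being the exception. Values below are read counts divided by the TMM-scaled library size (CPM), log2 changes are given ± SE from edgeR's quasi-likelihood test, and a gene is called where its p, adjusted over the 14185 genes tested, is under 0.05. Because a clone letter marks the same clone at each time, the fit with clone as a block is given wherever it changes a call. Nothing in the labels gives separate cultures beyond the clones, so p-values measure the spread between these libraries. The 4 genes taken as a sign of ERK activity, the transcription factors Egr1 and Fos and the ERK feedback genes Spry4 and Dusp6, were all called higher at 1, 2 and 4 h. The summed level of 8 stem cell markers was 4352 to 4401 CPM at 4 h and 4380 to 4761 CPM in untreated libraries, and all 8 passed the filter. It was higher in between, 4887 to 5411 CPM at 1 h and 4909 to 5589 CPM at 2 h. At 4 h 2 of the 8 were called higher (Dppa4 and Pou5f1) and 2 lower (Nanog and Tdgf1). Over all tested genes 18% were called higher and 15.1% lower. With the clone block 3 were called each way, beside 26.2% and 25.7% of all tested genes. Nanog had a mean of 282 CPM at 4 h and 699 CPM untreated. Scaling by library totals alone, in place of TMM, moved the median log2 change of all tested genes to −0.11, −0.14 and −0.13 at 1, 2 and 4 h, against −0.02 at each time with TMM. That scaling turned 1356 genes higher and 942 lower at 2 h into 688 higher and 1517 lower, and at 4 h 2551 higher and 2140 lower into 1841 higher and 2911 lower. Between 4 h and 2 h, 464 genes higher and 200 lower became 499 higher and 119 lower. Members are therefore reported relative to the TMM median.

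**Figure D1:**
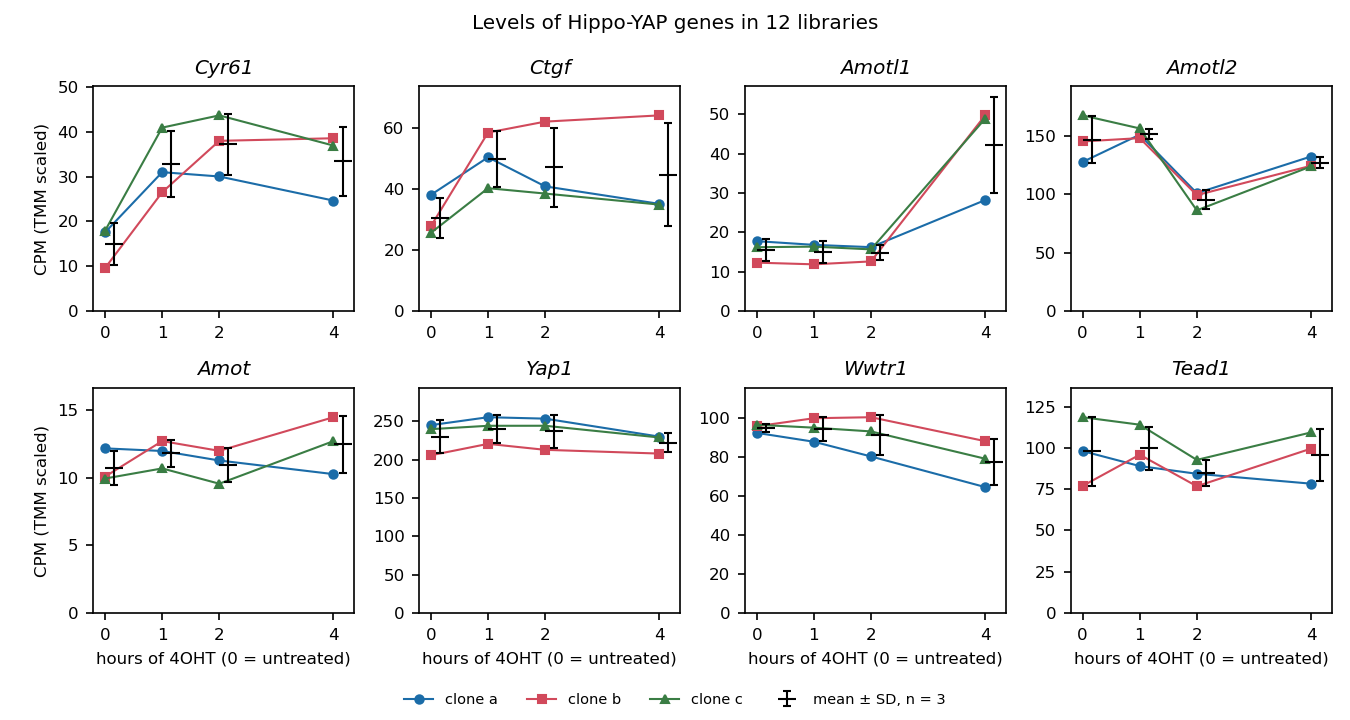
Level in CPM (y axis) of the 8 tested members against hours of 4OHT (x axis, 0 for untreated) in clones a, b and c, with the mean ± SD of 3 clones in black. Cyr61 was above its untreated range in all 9 treated libraries, Amotl1 stood above its earlier range at 4 h alone, and Amotl2 dipped to 86.4 to 101 CPM at 2 h.

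The members called without the clone block differed in when they changed. Cyr61 was higher at 2 and 4 h, and with the block already at 1 h, Amotl2 was lower at 2 h and partly back at 4 h, and Amotl1 was higher at 4 h. At 1 h, edgeR called 0 of the 8 tested members, while 0.0775% of all tested genes were called higher and 0% lower. At an unadjusted p under 0.05 there were 2 such members at 1 h, beside 1630 of the 14185 tested genes. The DESeq2 test called 1 member, Cyr61, beside 133 of the 14185 genes. With clone as a block, 2 members (Cyr61 and Ctgf) were called higher at 1 h, beside 5.41% of all tested genes higher and 1.58% lower.

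At 2 h, 1 member was called higher (Cyr61) and 1 lower (Amotl2), beside 9.56% of all tested genes higher and 6.64% lower. With the block there were 2 higher (Cyr61 and Ctgf) and 1 lower (Amotl2), beside 20.6% and 20% of all tested genes. At 4 h, 2 members were called higher (Cyr61 and Amotl1) and 0 lower, beside 18% of all tested genes higher and 15.1% lower. With the block there were 3 higher (Cyr61, Ctgf and Amotl1) and 1 lower (Wwtr1) at 4 h, beside 26.2% and 25.7%. Most of these shares of members are near the background at 2 and 4 h, and the median change of the 8 members at 4 h was 0.09 on the log2 scale, against −0.02 over all tested genes.

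Between neighbouring times the background was lower. At 2 h against 1 h, 1 member was called lower (Amotl2) and 0 higher, beside 0.00705% of all tested genes lower and 0.0564% higher. Amotl2 was the 1 gene of 14185 called lower in that comparison. With the block it was again the 1 member called, beside 5.46% of all tested genes lower and 7.13% higher. At 4 h against 2 h, 2 members were called higher (Amotl1 and Amotl2) and 0 lower, beside 3.27% of all tested genes higher and 1.41% lower. The block added Wwtr1 as lower, beside 12% higher and 9.98% lower. In the F test over the 3 treated times 3 members were called (Amotl1, Amotl2 and Cyr61), beside 27.4% of all tested genes, and with the block 5 (these and Ctgf and Wwtr1), beside 56.8%.

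**Figure D2:**
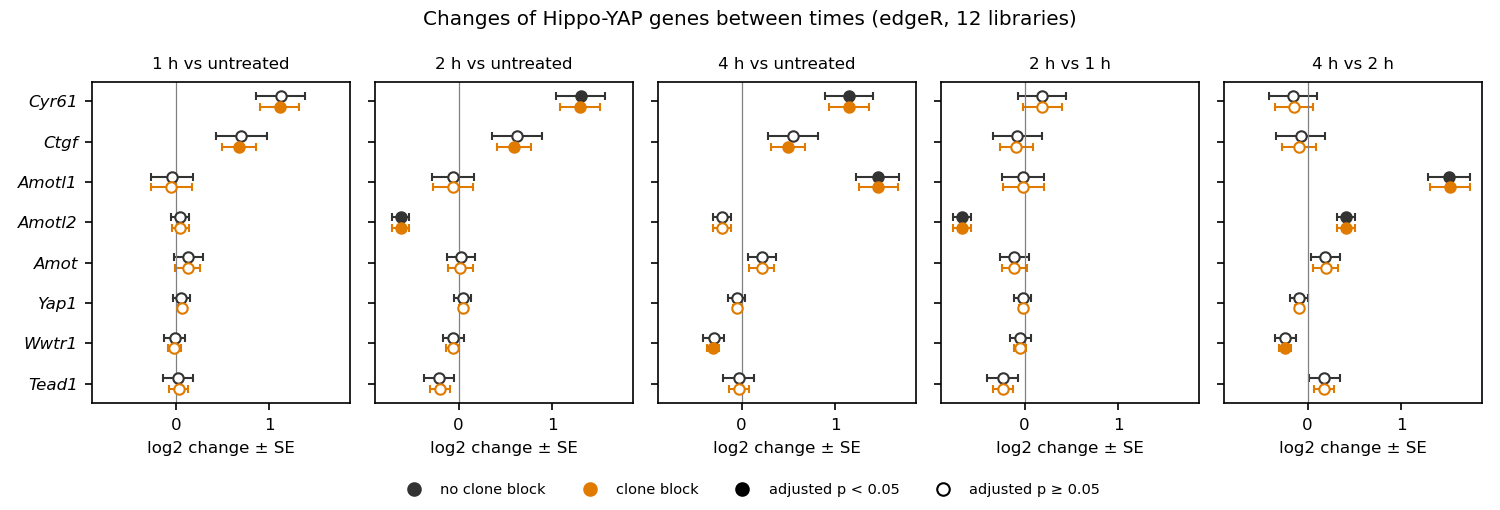
Log2 change ± SE (x axis) of the 8 tested members (rows) in 5 comparisons of times (panels) over 12 libraries, without the clone block in black and with it in orange. Filled points have an adjusted p under 0.05: the estimates with and without the block lie close together, and the block adds Cyr61 and Ctgf at 1 h, Ctgf at 2 h, Ctgf and Wwtr1 at 4 h, and Wwtr1 at 4 h against 2 h.

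Windows around the gene start are printed for the 3 members called in the F test, because 2 of the 3 hold the core of the TEAD binding motif and 1 does not. They are RefSeq windows of build GRCm38.p6, 250 bases before to 50 after 1 start of the gene, written 5′ to 3′ along the gene's strand, and other starts of these genes are not covered. Capitals mark matches to the TEAD core CATTCC, searched on both strands. RefSeq names Cyr61 as Ccn1.
Cyr61, chr3:145649936-145650235, minus strand: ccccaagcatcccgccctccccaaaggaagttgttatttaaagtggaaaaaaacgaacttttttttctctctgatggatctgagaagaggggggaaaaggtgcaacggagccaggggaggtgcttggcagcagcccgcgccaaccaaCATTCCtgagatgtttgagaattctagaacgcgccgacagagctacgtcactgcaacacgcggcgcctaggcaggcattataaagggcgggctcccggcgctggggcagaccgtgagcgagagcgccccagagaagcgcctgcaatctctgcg
Amotl2, chr9:102717554-102717853, plus strand: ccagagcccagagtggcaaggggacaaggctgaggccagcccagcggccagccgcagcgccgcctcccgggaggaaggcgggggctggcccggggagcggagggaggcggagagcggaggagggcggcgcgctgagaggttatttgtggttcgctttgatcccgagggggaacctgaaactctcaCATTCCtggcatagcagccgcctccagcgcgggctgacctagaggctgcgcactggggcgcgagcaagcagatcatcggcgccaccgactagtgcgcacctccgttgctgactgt
Amotl1, chr9:14614951-14615250, minus strand: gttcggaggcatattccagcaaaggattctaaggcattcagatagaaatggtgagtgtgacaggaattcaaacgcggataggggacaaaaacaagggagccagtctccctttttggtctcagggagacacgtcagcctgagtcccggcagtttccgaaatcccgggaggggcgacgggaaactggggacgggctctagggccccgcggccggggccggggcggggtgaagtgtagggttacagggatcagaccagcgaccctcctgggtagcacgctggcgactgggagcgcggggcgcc
The match began at position −103 from the start in Cyr61 and at −65 in Amotl2. Of the 9 members, 7 matched an entry of the promoter table (Ctgf and Tead1 did not), with 9 windows among them. The core was in a window of 5 of the 7, which besides Cyr61 and Amotl2 were Yap1 (−141), Wwtr1 (−136 in 1 of its windows and −170 in the other, which overlap) and Lats2 (position 5). It was in no window of Amotl1 or Amot. Of all 32851 windows in the table, 14.7% held the core. That share counts single windows, while the 5 of 7 counts members with the core in any window, so the units differ. The AP-1 motif, spelled TGACTCA or TGAGTCA, was in 5.2% of all windows and in 0 of the members' windows, and the CArG box bound by SRF was in 1.63% and in 0 of the members' windows. A match is a string of letters, and no binding was measured.

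Among the targets, Cyr61 (Ccn1 in GENCODE M21, chromosome 3, 145646976 to 145649981, minus strand, GRCm38) encodes a secreted matricellular protein of the CCN family. In clones a, b and c it had 17.6, 9.63 and 18.0 CPM untreated, 30.98, 26.5 and 40.9 CPM at 1 h, 30.02, 38.0 and 43.6 CPM at 2 h, and 24.7, 38.5 and 36.9 CPM at 4 h. Each of the 9 treated libraries was above the highest untreated one, and clone b, the lowest untreated, was the highest at 4 h. The means were 15.1 ± 4.70 CPM untreated, 32.8 ± 7.37 CPM at 1 h, 37.2 ± 6.84 CPM at 2 h and 33.4 ± 7.59 CPM at 4 h (SD, n = 3 clones each).

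The log2 change of Cyr61 was 1.12 ± 0.26 at 1 h (edgeR adjusted p = 0.252, and 0.0153 with the block). It was 1.30 ± 0.26 at 2 h (adjusted p = 0.0125) and 1.14 ± 0.26 at 4 h (adjusted p = 0.00686), a fold of 2.47 and 2.21. No difference between treated times was called, with 0.18 ± 0.25 for 2 h against 1 h (edgeR adjusted p = 0.764) and −0.16 ± 0.25 for 4 h against 2 h (edgeR adjusted p = 0.780). The call at 2 h was lost when the 2 h library of clone c was removed (1.17, edgeR adjusted p = 0.0606). Removing clone b whole gave an adjusted p of 0.0997 at 2 h and 0.0689 at 4 h. Removing clone c whole gave 0.242 and 0.0705, and with the block it ended the calls at 1 h (0.208) and 2 h (0.0502) and in the F test (0.0755). Over the 12 libraries the levels most like those of Cyr61, by Pearson r of log2 CPM, were those of Csnk1d (0.93), Zmynd19 (0.93) and Umps (0.93). These and the r values below share libraries, clones and scaling, and are descriptions over 12 libraries.

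Ctgf (Ccn2, chromosome 10, 24595442 to 24598683, plus strand), a second CCN gene and the other classic YAP target, was called in the fit with the clone block alone. It had 38.1, 27.9 and 25.7 CPM untreated, 50.4, 58.5 and 40.3 CPM at 1 h, 40.9, 62.0 and 38.5 CPM at 2 h, and 35.1, 64.1 and 34.9 CPM at 4 h in clones a, b and c. The treated libraries were above all untreated ones at 1 and 2 h and overlapped them at 4 h, where clone a was below its own untreated library and clone b alone was high. Log2 changes of Ctgf at 1, 2 and 4 h were 0.70 ± 0.27, 0.63 ± 0.27 and 0.55 ± 0.27. It did not pass the threshold at any of the 3 times (edgeR adjusted p = 0.353, 0.124 and 0.136), and passed it with the block at each (0.0499, 0.0252 and 0.0404). Blocked values were 0.67 ± 0.18, 0.59 ± 0.18 and 0.50 ± 0.18, and these calls were kept when clone a was removed and lost when clone b or clone c was. In the annotation 665 of its 2861 exon bases are shared with Gm15270 on the opposite strand, and the strand setting of the counting is not given, so reads of the pair cannot be told apart. Its nearest genes by level were Hspbap1 (r 0.92), Rcc1 (0.92) and Slc38a2 (0.92).

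Of the angiomotins, Amotl1 (chromosome 9, 14541966 to 14645056, minus strand), which links junctions and the cytoskeleton and binds YAP, was the late one. It had 17.8, 12.3 and 16.3 CPM untreated, 16.9, 11.9 and 16.4 CPM at 1 h, 16.3, 12.7 and 15.7 CPM at 2 h, and 28.2, 49.7 and 48.9 CPM at 4 h in clones a, b and c. Untreated, 1 h and 2 h libraries of a clone were close together, and all 3 libraries at 4 h were above the other 9, with clone a the lowest of the 3. Means were 15.5 ± 2.81 CPM untreated, 15.1 ± 2.74 CPM at 1 h, 14.9 ± 1.95 CPM at 2 h and 42.3 ± 12.2 CPM at 4 h (SD, n = 3 clones each).

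The log2 change of Amotl1 was 1.45 ± 0.23 for 4 h against untreated, a fold of 2.73 (edgeR adjusted p = 0.0010). For 4 h against 2 h it was 1.51 ± 0.23, a fold of 2.84 (edgeR adjusted p = 0.00764). At 1 h and 2 h against untreated it was −0.04 ± 0.23 and −0.06 ± 0.23 (edgeR adjusted p = 0.974 and 0.876). No single left-out library ended either call, while leaving out all of clone c gave 0.0562 for 4 h against untreated. For 4 h against 2 h, leaving out clone b gave 0.127 and clone c 0.356. Meis1 (r 0.99), Podxl (0.98) and Cyp26a1 (0.98) had the levels most like it.

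Amotl2 (chromosome 9, 102716672 to 102733418, plus strand), the angiomotin that YAP itself is known to induce, went the other way at 2 h. It had 128, 145 and 168 CPM untreated, 151, 148 and 157 CPM at 1 h, 101, 99.4 and 86.4 CPM at 2 h, and 132, 125 and 124 CPM at 4 h. All 3 libraries at 2 h were below the other 9, and the libraries at 4 h were above those at 2 h and overlapped the untreated ones. The means were 147 ± 20.0 CPM untreated, 152 ± 4.20 CPM at 1 h, 95.6 ± 8.06 CPM at 2 h and 127 ± 4.75 CPM at 4 h (SD, n = 3 clones each).

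On the log2 scale Amotl2 fell by 0.62 ± 0.10 at 2 h against untreated (edgeR adjusted p = 0.00499) and by 0.67 ± 0.10 at 2 h against 1 h (edgeR adjusted p = 0.0322). It rose by 0.41 ± 0.10 at 4 h against 2 h (edgeR adjusted p = 0.0346). The change was 0.05 ± 0.09 at 1 h and −0.21 ± 0.09 at 4 h against untreated (edgeR adjusted p = 0.903 and 0.108). The call at 2 h against untreated held without any single library and was lost without clone b (0.0769) or clone c (0.236). The call at 2 h against 1 h did not survive removal of untreated b (adjusted p = 0.0784), of 1 h a (0.130), 1 h b (0.173) or 1 h c (0.177), of 2 h b (0.108) or 2 h c (0.207), or of 4 h c (0.0605), each being 1 library named by time and clone. The call at 4 h against 2 h did not survive removal of untreated b (0.0515), 1 h c (0.0560), 2 h b (0.0782), 2 h c (0.123), 4 h b (0.0761) or 4 h c (0.0947). At 4 h against untreated it was called lower without the untreated library of clone a (−0.30, adjusted p = 0.0277) and with scaling by library totals (−0.32, 0.0322). Sh2d3c (r 0.91), Sipa1l3 (0.90) and Irgq (0.89) had levels most like it.

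Amot (chromosome X, 145446425 to 145505181, minus strand), the founding angiomotin, was low and was not called with all clones in the fit. It had 9.93 to 12.2 CPM untreated, 10.7 to 12.7 CPM at 1 h, 9.55 to 11.97 CPM at 2 h and 10.3 to 14.5 CPM at 4 h, and the ranges overlapped at each time. Its log2 change at 4 h was 0.22 ± 0.15 (edgeR adjusted p = 0.290). With the block and without clone a, whose library at 4 h was below its untreated one, it was called higher at 4 h (0.43, adjusted p = 0.00497). In that setting it was also called higher at 4 h against 2 h (0.34, adjusted p = 0.0290). The F test called it there too (adjusted p = 0.0183). Lsm14a, Rbm33 and Spata48 (r 0.88 each) had levels most like it.

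The coactivator Yap1 (chromosome 9, 7931999 to 8004596, minus strand) kept 1 level. It had 206 to 245 CPM untreated, 221 to 256 CPM at 1 h, 213 to 254 CPM at 2 h and 208 to 230 CPM at 4 h, and clone b was the lowest library at each time. Its log2 changes at 1, 2 and 4 h were 0.06 ± 0.09, 0.04 ± 0.09 and −0.05 ± 0.09 (edgeR adjusted p = 0.870, 0.780 and 0.707), and it was called under none of the settings tried. The annotation shares 116 of its 9257 exon bases with Gm20416 on the opposite strand. Kdsr (r 0.94), R3hdm1 (0.93) and Hnrnph3 (0.92) had levels most like it.

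Wwtr1 (chromosome 3, 57455649 to 57575910, minus strand), which encodes the paralogous coactivator TAZ, was called lower at 4 h in the fit with the clone block. It had 92.3, 95.7 and 96.4 CPM untreated, 87.7, 99.8 and 94.9 CPM at 1 h, 80.2, 100.3 and 93.0 CPM at 2 h, and 64.5, 88.0 and 79.0 CPM at 4 h in clones a, b and c. All 3 libraries at 4 h were below the untreated ones, and in each clone the 4 h library was the lowest. The log2 change at 4 h was −0.30 ± 0.11 (edgeR adjusted p = 0.0634), and with the block −0.31 ± 0.07 (adjusted p = 0.00279). For 4 h against 2 h it was −0.24 ± 0.11 (edgeR adjusted p = 0.253), and with the block −0.24 ± 0.07 (adjusted p = 0.0251). The blocked call at 4 h was kept without clone a or clone b and lost without clone c (0.0571), and the blocked call at 4 h against 2 h was kept without clone a and lost without clone b (0.0842) or clone c (0.255). Without the block it was called at 4 h when the 2 h library of clone a (−0.30, 0.0467) or the 4 h library of clone b (−0.40, 0.0295) was left out, and with scaling by library totals (−0.41, 0.00731). Rnf225 (r 0.95), Jam2 (0.95) and Fam241a (0.94) had levels most like it.

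Tead1 (chromosome 7, 112679318 to 112906807, plus strand), a DNA-binding partner of both coactivators, overlapped between all times. It had 77.0 to 119 CPM untreated, 89.0 to 114 CPM at 1 h, 76.8 to 92.7 CPM at 2 h and 78.3 to 109 CPM at 4 h. Its log2 changes at 1, 2 and 4 h were 0.03 ± 0.16, −0.21 ± 0.16 and −0.03 ± 0.16 (edgeR adjusted p = 0.980, 0.385 and 0.903). With the block and 1 clone left out it was called in 3 comparisons, lower at 2 h against untreated without clone b (−0.29, adjusted p = 0.0491), and without clone a lower at 2 h against 1 h (−0.31, 0.0368) and higher at 4 h against 2 h (0.31, 0.0323). With the block and without clone a it was also called in the F test (adjusted p = 0.0458). Plagl1 (r 0.90), Frs2 (0.89) and Tmem136 (0.87) had levels most like it.

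The kinase Lats2 (chromosome 14, 57689662 to 57758388, minus strand) was close to the limit of counting. In clones a, b and c its counts were 1, 0 and 1 untreated, 0, 2 and 2 at 1 h, 4, 4 and 4 at 2 h, and 4, 3 and 2 at 4 h. Summed over clones and scaled, the ratio to untreated was 2.04 at 1 h (95% counting interval 0.292 to 22.5), 5.71 at 2 h (1.27 to 52.5) and 4.44 at 4 h (0.919 to 42.2). The ratios were scaled by library totals alone, without TMM, and the intervals cover counting error alone. At 2 h and 4 h all 3 libraries were above the untreated ones in counts. In an edgeR fit without the filter on low counts, over 19425 genes, the adjusted p was 0.795 at 1 h, 0.0672 at 2 h, 0.0941 at 4 h and 0.124 in the F test (unadjusted 0.343, 0.00878, 0.0269 and 0.0356), so it was not called. In the annotation 2955 of its 6971 exon bases lie in Gm49361 on the same strand and 4016 do not, and neither the annotation used by the authors nor their treatment of shared bases is given, so a low level and uncounted reads cannot be told apart.

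Compared per length, as CPM per kilobase of annotated exon, the untreated levels ran from Yap1 (24.9 ± 2.31) through Amotl2 (23.4 ± 3.18), Wwtr1 (19.8 ± 0.464), Ctgf (10.7 ± 2.32), Cyr61 (7.46 ± 2.33), Tead1 (7.21 ± 1.53) and Amotl1 (1.54 ± 0.280) to Amot (1.28 ± 0.148; SD, n = 3 clones each). Among neighbours in that order, Yap1 and Amotl2, Cyr61 and Tead1, and Amotl1 and Amot overlapped, and the other pairs did not. The order changed with time. At 2 h Amotl2 had a per-length level of 15.2 ± 1.28 and stood below Wwtr1, Cyr61 and Ctgf, with a range that overlapped those of Ctgf and Cyr61. At 4 h Amotl1 stood apart from Amot, at 4.20 ± 1.21 against 1.48 ± 0.251 CPM per kilobase. Lats2 had 0.00313 CPM per kilobase in untreated libraries, with the limit given above.

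**Figure D3:**
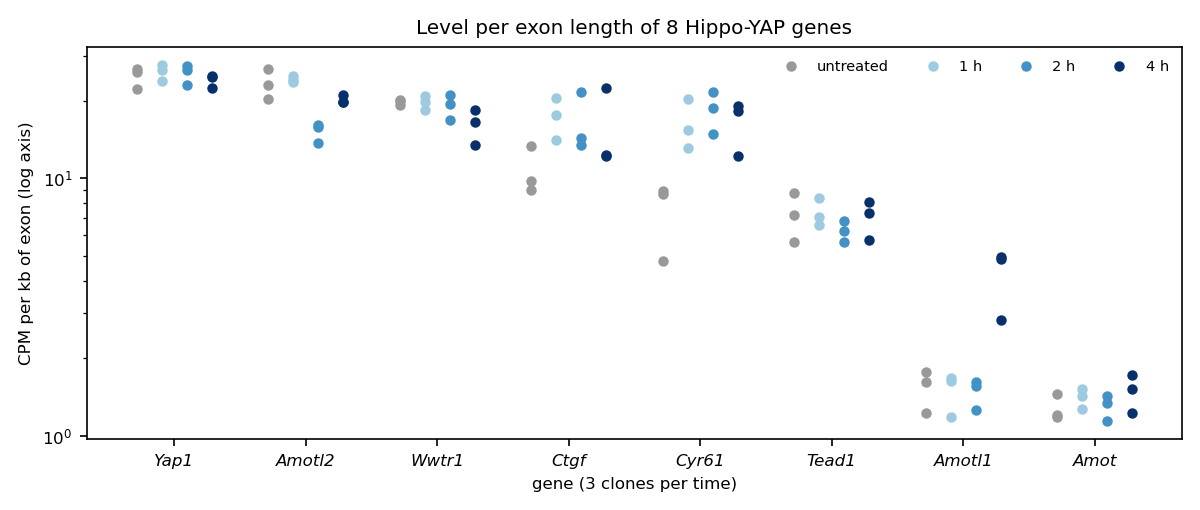
CPM per kilobase of annotated exon (log axis) of 8 members (x axis), 1 point per clone, with untreated, 1, 2 and 4 h from grey to dark blue. Cyr61 and Ctgf moved up toward Wwtr1 after treatment, and Amotl1 left the level of Amot at 4 h.

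The 3 clones responded to different degrees. At 4 h the change in log2 CPM from the clone's own untreated library was 0.49, 1.99 and 1.04 for Cyr61 in clones a, b and c, and −0.12, 1.20 and 0.44 for Ctgf. For Amotl1 it was 0.66, 2.00 and 1.58. For Egr1 it was 1.81, 4.75 and 3.35, and for Spry4 2.75, 4.07 and 3.51. Clone a thus had the lowest and clone b the highest signed change in each of these 5 genes at 4 h. This order was not particular to called genes. Among members called at 4 h in neither fit, Amot (−0.24, 0.52 and 0.35) and Tead1 (−0.32, 0.37 and −0.12) had it too. So did Yap1 (−0.09, 0.02 and −0.07), and Amotl2 (0.05, −0.22 and −0.44) did not. The same order held for Cyr61, Ctgf, Egr1 and Spry4 at 1 h and 2 h, and also for Amot and Wwtr1. It did not hold for the other 2 genes of the ERK response at each time. Dusp6 changed by 1.58, 1.37 and 1.60 at 1 h, by 2.57, 2.52 and 2.83 at 2 h and by 2.39, 2.70 and 2.78 at 4 h. Fos changed by 3.39, 4.84 and 4.75 at 1 h, by 3.17, 4.10 and 4.19 at 2 h and by 1.46, 3.14 and 2.82 at 4 h, so clone c was the highest at 2 h. Amotl2 at 2 h ran in another order, −0.34, −0.55 and −0.96. Wwtr1 at 4 h fell most in clone a and least in clone b, by −0.52, −0.12 and −0.29. On the signed scale that is the same order as in the 5 genes above. For Cyr61, clone b was the lowest clone both untreated (9.63 CPM) and at 1 h (26.5 CPM). Its larger change at 1 h thus started from a lower level. What part the clones' ERK response has in these differences was not tested.

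**Figure D4:**
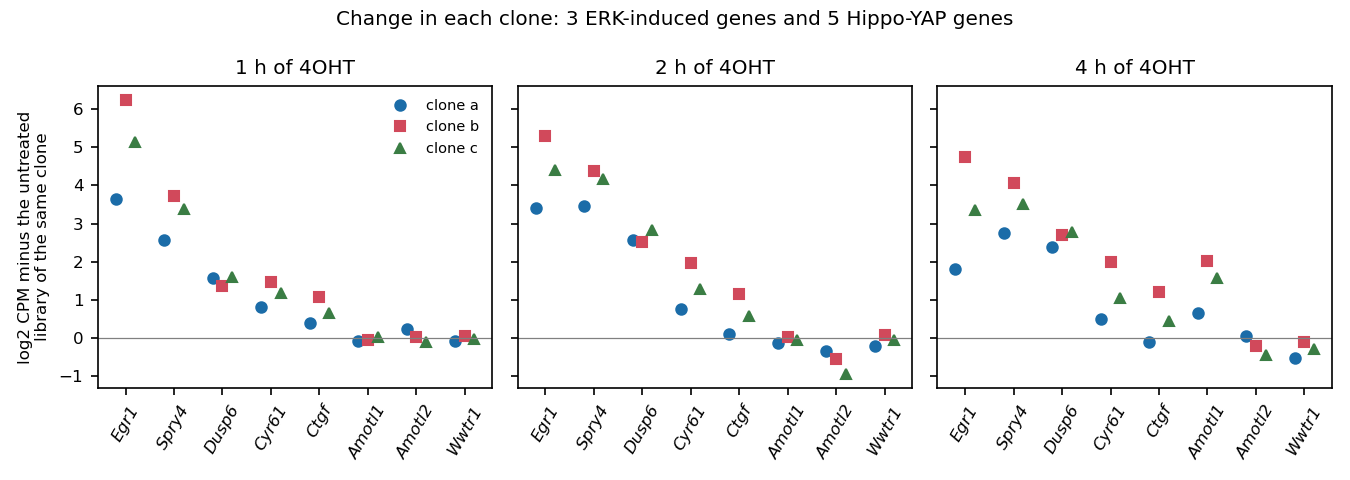
Change in log2 CPM from the untreated library of the same clone (y axis) at 1, 2 and 4 h (panels) for 3 genes of the ERK response and 5 members (x axis), 1 marker per clone. Clone a lies lowest and clone b highest for Egr1, Spry4, Cyr61, Ctgf and Wwtr1 in each panel.

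Markers of other cell types also moved at 4 h, and some of them already at 2 h. Over all tested genes, 18% were called higher and 15.1% lower at 4 h, and 26.2% and 25.7% with the clone block. The sum of 8 trophoblast markers was 37.7 to 126 CPM at 4 h and 15.4 to 18.6 CPM in untreated libraries, and 4 of the 6 that could be tested were called higher (Krt18, Gata3, Cdx2 and Eomes). The sum of 8 fibroblast markers was 14.0 to 28.4 CPM at 4 h and 6.72 to 7.72 CPM in untreated libraries. Of the 3 of these that could be tested, 2 were called higher (Col1a1 and Thy1) and 1 lower (Pdgfrb), and Postn had no counts in any untreated library. The sum of 8 primitive endoderm markers was 389 to 588 CPM at 4 h and 472 to 713 CPM in untreated libraries, with 0 of 8 called, and with the clone block 3 called lower (Gata4, Lama1 and Pdgfra). At 2 h the trophoblast sum was 22.7 to 35.5 CPM, and Cdx2 was called higher, beside 9.56% of all tested genes. With the block Krt18, Cdx2, Eomes and Col1a1 were called higher at 2 h, beside 20.6% of all tested genes. Sox7, Lama1 and Pdgfra were called lower there, beside 20%. For these markers the part in the 4 h values of Amotl1, Cyr61 and Ctgf was not tested. In bulk RNA fewer or more cells of a type and less or more RNA per cell cannot be told apart.

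The other genes of the pathway moved in both directions. Of the TEAD and VGLL genes, which encode the DNA-binding partners of YAP and TAZ and cofactors that share their TEAD surface, 5 of 7 were tested. At 4 h, 3 were called higher (Tead4, Tead3 and Vgll4) and 0 lower, beside 18% and 15.1% of all tested genes, and the median change of the 5 was 0.66 on the log2 scale, against −0.02 over all tested genes. Tead4, the family member required for trophectoderm in the mouse embryo, averaged 219 CPM at 4 h and 58.3 CPM untreated, a log2 change of 1.91 ± 0.28 (edgeR adjusted p = 0.000677). Tead3 averaged 20.8 CPM at 4 h and 6.70 CPM untreated, a change of 1.64 ± 0.40 (edgeR adjusted p = 0.00997). Both calls held without any single library, and that of Tead3 was lost without clone b (0.0696) or clone c (0.123). Vgll4, which competes with YAP for TEAD, changed by 0.66 ± 0.24 (edgeR adjusted p = 0.0488). That call ended when 1 of 8 libraries was removed, namely untreated a (adjusted p = 0.165), untreated b (0.104), 1 h a (0.0594), 1 h b (0.0553), 1 h c (0.0662), 2 h c (0.0635), 4 h b (0.149) or 4 h c (0.151), and when clone b (0.232) or clone c (0.188) was removed whole. Vgll4 was also not called with scaling by library totals (edgeR adjusted p = 0.0757). Tead2 and Vgll3 changed by 0.03 ± 0.09 and 0.26 ± 0.26 (edgeR adjusted p = 0.832 and 0.477). At 2 h edgeR called 0 of the 5, beside 9.56% of all tested genes higher and 6.64% lower. With the block 2 were called higher, Tead3 and Tead4, beside 20.6% and 20%.

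Of 24 genes of the kinase module and its regulators, 23 were tested, and at 4 h 2 were called higher and 4 lower, with a median change of 0.07, beside 18% and 15.1% of all tested genes. With the block there were 4 higher and 6 lower, beside 26.2% and 25.7%. Map4k4, a kinase that can activate LATS, averaged 502 CPM at 4 h and 302 CPM untreated, and its log2 level changed by 0.73 ± 0.13 (edgeR adjusted p = 0.00207) and Stk4, an upstream kinase of the cascade, by 0.27 ± 0.06 (edgeR adjusted p = 0.00576). Stk38, a relative of the LATS kinases, changed by −0.64 ± 0.10 (edgeR adjusted p = 0.000867), to 103 CPM at 4 h against 162 CPM untreated. Stk3, a paralogue of Stk4, changed by −0.41 ± 0.07 (edgeR adjusted p = 0.00213), to 32.4 CPM at 4 h against 42.9 CPM untreated. The other genes called lower at 4 h were Nf2, an upstream regulator, and Taok3. The calls of Map4k4, Stk4, Stk38 and Stk3 held without any single library. Removing clone c whole ended all 4 (Map4k4 0.0509, Stk4 0.100, Stk38 0.0542 and Stk3 0.0593), removing clone b whole ended that of Stk4 (0.102), and Stk4 was not called with scaling by library totals (adjusted p = 0.0750).

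**Figure D5:**
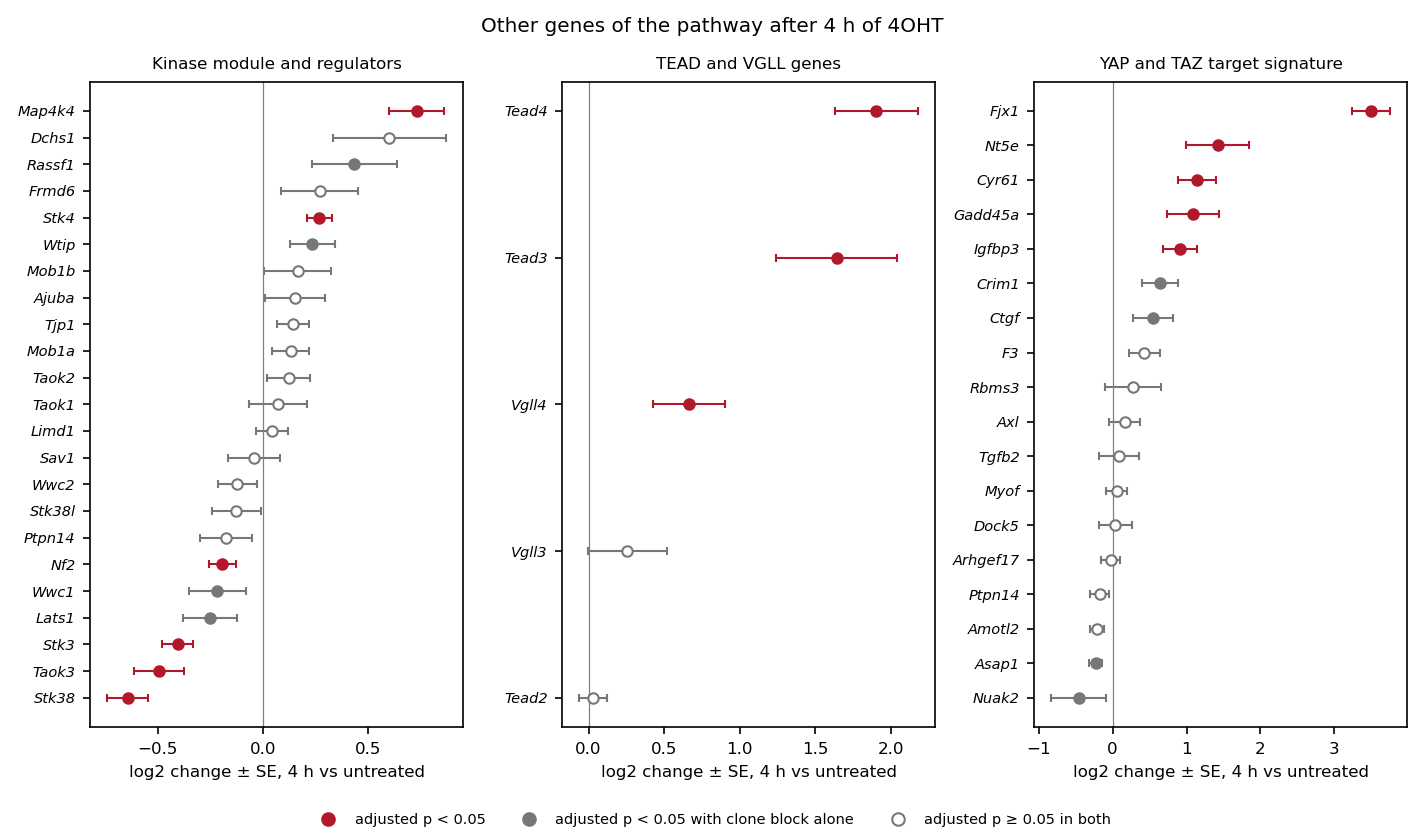
Log2 change ± SE (x axis) at 4 h against untreated for the tested genes (rows) of the kinase module, of the TEAD and VGLL genes and of a YAP and TAZ target signature (panels). Red points were called, grey filled points were called with the clone block alone, and open points were called in neither.

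Of 22 genes of a commonly used YAP and TAZ target signature, 4 of which are among the 9 members, 18 were tested. At 4 h, 5 were called higher (Fjx1, Nt5e, Cyr61, Gadd45a and Igfbp3) and 0 lower, with a median change of 0.22, beside 18% and 15.1% of all tested genes. With the block there were 7 higher and 2 lower, beside 26.2% and 25.7%. Fjx1, which encodes the four-jointed box protein, averaged 50.8 CPM at 4 h and 4.501 CPM untreated, a log2 change of 3.50 ± 0.26 (edgeR adjusted p = 3.5e-05), and at 2 h it had already changed by 2.40 ± 0.25 (edgeR adjusted p = 0.00112, and 0.159 without clone c). Igfbp3, which binds insulin-like growth factors, changed by 0.91 ± 0.23 at 4 h (edgeR adjusted p = 0.0120), a call that ended when 4 h b (0.0536), clone b whole (0.108) or clone c whole (0.0701) was removed. Gadd45a, a growth arrest gene, changed by 1.09 ± 0.35 at 4 h (edgeR adjusted p = 0.0334). That call ended when untreated a (0.0625), untreated b (0.0913), untreated c (0.0906), 4 h a (0.0670), 4 h c (0.0884) or clone c whole (0.264) was removed. Scaling by library totals alone also ended it (edgeR adjusted p = 0.0520). At 2 h, 2 signature genes were called higher (Fjx1 and Cyr61) and 2 lower (Amotl2 and Asap1), with a median of 0.10, beside 9.56% and 6.64% of all tested genes, and with the block 6 higher and 5 lower, beside 20.6% and 20%.

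Of the 6 CCN genes, 5 were tested, and at 4 h 1 was called higher (Cyr61) and 1 lower (Nov), beside 18% and 15.1% of all tested genes. With the block there were 3 higher and 2 lower, beside 26.2% and 25.7%. Nov, a family member near the limit of detection here, averaged 0.377 CPM at 4 h and 0.874 CPM untreated, a log2 change of −1.23 ± 0.35 (edgeR adjusted p = 0.0209). That call ended when untreated a (0.0875), 4 h b (0.0898) or 4 h c (0.0567) was removed, and when clone a (0.0617), b (0.127) or c (0.0994) was removed whole. Wisp1 and Wisp3 changed by 0.49 ± 0.30 and −0.87 ± 0.44 (edgeR adjusted p = 0.231 and 0.149), and with the block both were called (0.0274 and 0.0377).

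SRF with its actin-controlled cofactors also acts on Cyr61 and Ctgf, and of 14 genes of that branch 12 were tested. At 4 h, 3 were called higher (Fhl2, Srf and Actb) and 0 lower, with a median of 0.09, beside 18% and 15.1% of all tested genes. With the block there were 4 higher and 1 lower, beside 26.2% and 25.7%. Fhl2, a LIM-domain cofactor, averaged 13.4 CPM at 4 h and 2.63 CPM untreated, a log2 change of 2.36 ± 0.41 (edgeR adjusted p = 0.00187). Srf itself averaged 66.7 CPM at 4 h and 43.4 CPM untreated, a change of 0.62 ± 0.13 (edgeR adjusted p = 0.00486), and was 0.74 ± 0.13 higher at 2 h (edgeR adjusted p = 0.00873). Without clone c the adjusted p of Srf was 0.0660 at 4 h and 0.242 at 2 h and that of Actb 0.0671 at 4 h, and without clone b that of Srf at 2 h was 0.109. At 1 h edgeR called 0 of the 12, beside 0.0775% of all tested genes higher and 0% lower. With the block 4 were called higher (Actg1, Vcl, Srf and Actb), beside 5.41% and 1.58%. The cytoskeletal actins Actb (0.58 ± 0.11 at 4 h, edgeR adjusted p = 0.00259) and Actg1 (0.06 ± 0.19, edgeR adjusted p = 0.846) have near-identical copies, so how their reads were divided is uncertain. Exons of Gadd45a share 337 of 1764 bases with other genes, those of Wisp3 482 of 1419, of Vcl 2090 of 8191 and of Pou5f1 317 of 2248. This leaves their counts uncertain to that degree. Exons of Actg1, Gata3, Eomes, Pdgfra and Tead2 share smaller parts.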

How the data were processed

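Read counts per gene symbol in 12 libraries were deposited by the authors as 1 table of raw counts, with no normalization. The submitters' processing notes name STAR, featureCounts, DESeq and mm10. The sources used here do not give versions, annotation, strand setting or the treatment of multiply mapped or shared reads. The time and the clone letter in a column's name tied it to its sample. The members and gene lists were chosen with earlier results of these data known.

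Low genes were removed with filterByExpr (at least 10 counts, at least 15 in total), so 14185 genes were tested and 11712 were not. With TMM scaling, edgeR 4.0.16 (R 4.3.3, limma 3.58.1) fitted its quasi-likelihood model to the 12 libraries together, a mean for each time. It had 8 residual degrees of freedom and a biological coefficient of variation of 0.163. Tests were 2-sided, with Benjamini-Hochberg adjustment and a threshold of 0.05. The approximate SE comes from dividing the size of a log2 change by the root of its F. Log2 CPM used a prior count of 2. One count was worth 0.0308 to 0.0408 CPM. The fit without the block was tried on simulated counts for 2 h against untreated alone. Those counts held no clone effect, so the trial says nothing on the blocked fit or on spread between clones.

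The clone letter marks the same clone at each time. Deviations from group means had r of 0.184 to 0.684 in 18 same-clone pairs and −0.568 to −0.0240 in 36 pairs of different clones. With clone as a block the coefficient of variation was 0.0924, with 6 residual degrees of freedom. No 2 libraries were copies: over 66 pairs, chi-square relative to its degrees of freedom was 15.8 to 266.

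Alternatives were the clone block, DESeq2's size factors, library totals alone, the DESeq2 1.42.0 test, no filter, and leaving out each library or all libraries of 1 clone. The block with each clone left out was added after the data were seen. Lengths are unions of GENCODE M21 exons (GRCm38, counted from 1), and promoter windows are from RefSeq (GRCm38.p6). Named were all 9 members, up to 4 genes of each pathway list by smallest adjusted p in the F test, every tested TEAD and VGLL gene, and the 3 genes most like each tested member by Pearson r among genes averaging at least 1 CPM. Genes named besides these as called members of a list were named after their values were seen. One gene of the planned list of the kinase module is not reported here, and the list's counts leave it out.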

Additional observations from a re-analysis of the deposited data

How the results depend on the processing

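No called change of a member or named gene reversed under any alternative. Over the 8 tested members and all comparisons, 974 values kept both their side of the threshold and, where there was one, their sign. Of the rest, 38 lost and 35 gained a call, and 57 stayed uncalled but changed sign. With the clone block, which pairs libraries of 1 clone, 2 members were called at 1 h, 4 at 4 h and 5 in the F test, in place of 0, 2 and 3. Over all tested genes it called 992 in place of 11 at 1 h, 5754 for 2298 at 2 h, 7374 for 4691 at 4 h, 1785 for 9 at 2 h against 1 h, 3115 for 664 at 4 h against 2 h, and 8054 for 3886 in the F test. The DESeq2 test called 1 member and 133 genes at 1 h, 575 genes at 2 h against 1 h and 1395 at 4 h against 2 h. Library totals alone called 4 members at 4 h, beside 4752 of the 14185 tested genes. At 2 h against 1 h that scaling called 41 genes, where no filter gave 43. Leaving out single libraries or whole clones gave 0 to 2 members at 2 h, 0 to 3 at 4 h, 0 to 1 at 2 h against 1 h, 0 to 2 at 4 h against 2 h and 0 to 3 in the F test. Over all genes these gave 0 to 26 at 1 h, 1 to 3248 at 2 h, 919 to 5559 at 4 h, 0 to 299 at 2 h against 1 h, 0 to 1468 at 4 h against 2 h, and 27 to 4686 in the F test. The block without clone a called 2, 6, 2, 5 and 7 members (at 1 h, at 4 h, at 2 h against 1 h, at 4 h against 2 h, F test). Without clone b it called 1 at 1 h and 1 at 4 h against 2 h, and without clone c 1 at 2 h, 0 at 2 h against 1 h and 0 at 4 h against 2 h. Calls over all tested genes were not counted in these blocked fits with a clone left out. These member counts therefore stand without a background share. The cause was not tested. With 0 to 4 counts per library, Lats2 was tested in the fit with no filter alone, and the width of its counting intervals is set by that depth.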
